A study of Mus musculus with 2 samples.

Results

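The 36 aminoacyl-tRNA synthetase genes examined here were chosen as a list of gene symbols, 20 for enzymes of the cytosol and 16 for enzymes of mitochondria, among 43346 annotated genes of which 21474 are protein-coding. Each was found once by its symbol, Mars1 through its older symbol Mars. They were measured in poly(A)-selected, paired-end RNA-seq libraries of primary mouse megakaryocyte-erythroid progenitors (MEP), precursors of red cells and of the megakaryocytes that release platelets. The labels give C57BL/6J adult females, 5 weeks old, and describe the cells as CD34-negative, naming lineage and CD16/32 in the same phrase. The only group holds 2 biological replicates, numbered in the labels and listed under the same donor, so no condition can be compared and the spread given here is that between these libraries. With 2 libraries an exact two-sided sign test cannot go below p = 0.5, and no test between members is given.

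Aminoacyl-tRNA synthetases join each amino acid to its tRNA, the step that sets the genetic code before the ribosome reads it. Cytosolic and mitochondrial protein synthesis mostly use separate enzymes, all encoded in the nucleus, whose mitochondrial forms carry the number 2 in their symbols. Gars and Kars are exceptions, since each gene supplies both compartments. The enzymes fall into class I and class II by the fold of their catalytic domain, and several cytosolic ones sit in a multi-synthetase complex held together by scaffold proteins.

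Expected counts, the estimated fragments per gene, summed to 79539457 in replicate 1 and 65305321 in replicate 2, of which the synthetase genes held 253515 and 213932. The lowest count of any of them was 92 and the highest 110792. All 6 erythroid and all 6 megakaryocytic marker genes examined were detected, with summed TPM (a transcript level scaled for length and library) of 641 and 774 for the first list and 241 and 379 for the second, in replicates 1 and 2. The 6 granulocyte and monocyte markers were far higher and summed to 31034 and 16992 TPM, each of the 6 being higher in replicate 1. The 5 B cell markers summed to 73.6 and 27.0 TPM and were also all higher in replicate 1, whereas the 5 T cell markers summed to 1.15 and 1.39. No marker in these lists was at 0 in both libraries. In bulk RNA a smaller number of cells of a type and less RNA per cell cannot be told apart.

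Nearly every synthetase gene was expressed, and the cytosolic genes stood above the mitochondrial ones. A TPM of 1 or more in both libraries was reached by 34 of 36 members, against 46.9% of all protein-coding genes. The exceptions were both mitochondrial, Wars2 at 0.59 and 0.49 TPM in replicates 1 and 2 and Pars2 at 1.67 and 0.85. At 10 TPM or more in both libraries were 16 of 20 cytosolic and 9 of 16 mitochondrial genes. The share of all protein-coding genes at that level was not counted, so neither number can be read as high or low. The median cytosolic level was 34.9 and 39.3 TPM (37.1 ± 3.11, SD, n = 2), and the median mitochondrial level was 11.1 and 16.5 TPM (13.8 ± 3.82). Protein-coding genes detected in both libraries had medians of 15.9 and 16.9 TPM. On the scale of log2(TPM + 1), the cytosolic median lay 1.56 above the mitochondrial one in replicate 1 and 1.25 above it in replicate 2 (1.41 ± 0.22). The difference dropped to 0.98 when only the members at 1 TPM or more were kept.

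**Figure D1:**
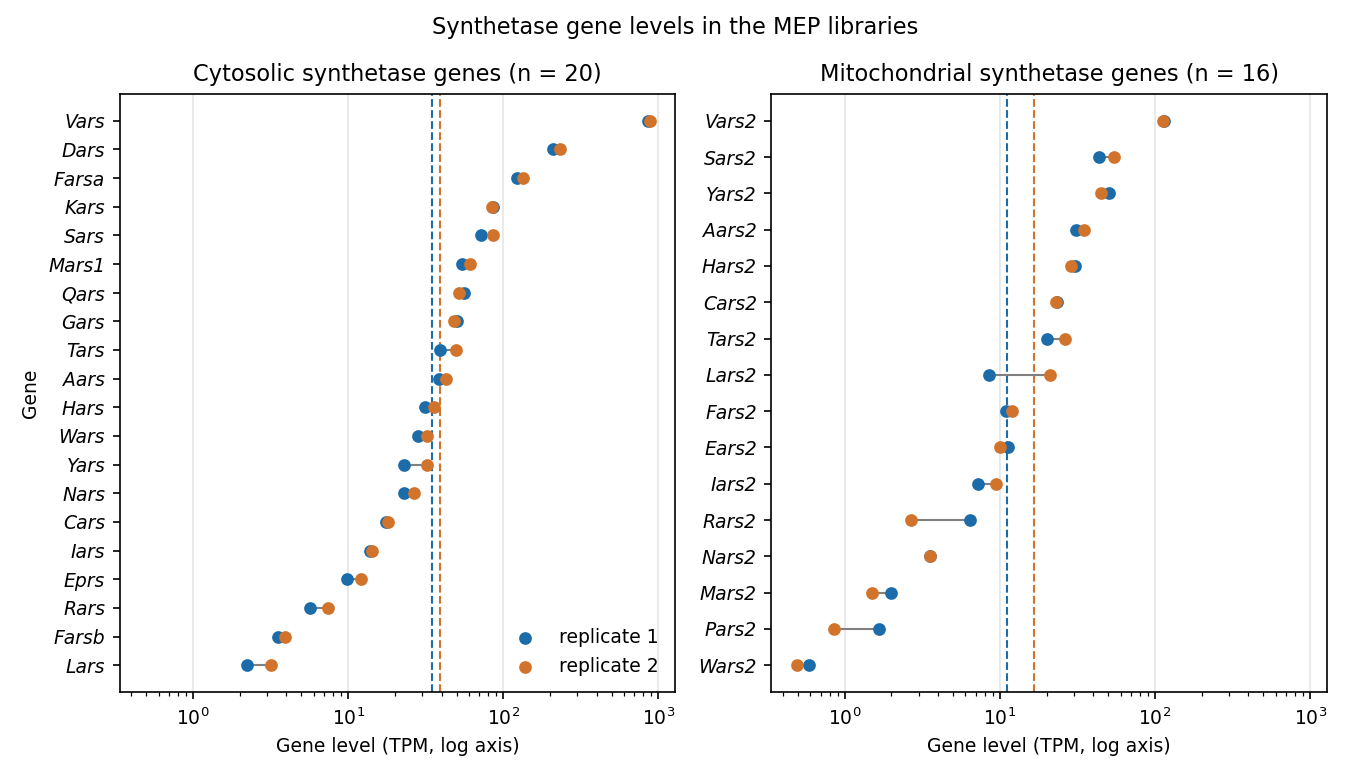
Level of each gene in TPM on a log axis, with cytosolic genes on the left and mitochondrial genes on the right; points are the 2 libraries, joined by a line, and dashed lines are the medians per library. Vars lies above all other members at 853 and 879 TPM, and Lars2, Rars2 and Pars2 have the widest gaps between libraries.

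The cytosolic levels were dominated by the valyl enzyme gene Vars (chromosome 17, 35000987 to 35016322 on GRCm38, plus strand). Vars was at 853 TPM in replicate 1 and 879 in replicate 2 (866 ± 18.5), 49.1% and 47.4% of the summed cytosolic TPM. Its 110792 and 87148 counts were also the most of any member. The aspartyl gene Dars followed with 208 and 232 TPM, and Farsa, the catalytic subunit gene of the phenylalanyl enzyme, with 123 and 135. These 3, with mitochondrial Vars2 at 114 and 112 TPM, were the only members at 100 TPM or more in both libraries. Each library placed Vars above every other member, with no overlap.

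A middle range held most of the cytosolic genes. Kars (lysine) had 85.5 and 85.1 TPM and Sars (serine) 72.3 and 85.7. Mars1 (methionine), Qars (glutamine), Gars (glycine), Tars (threonine) and Aars (alanine) followed with means of 40.5 to 57.5 TPM, and Hars (histidine), Wars (tryptophan), Yars (tyrosine), Nars (asparagine), Cars (cysteine), Iars (isoleucine) and Eprs (glutamate and proline) with means of 11.0 to 33.7. Below these, Rars (arginine) was at 5.67 and 7.38 TPM, Farsb (phenylalanine) at 3.54 and 3.92, and Lars (leucine) at 2.22 and 3.16, the lowest cytosolic values. Ordered by mean level, 12 of the 19 neighbouring cytosolic genes were separated in both libraries and 7 overlapped, so the finer order is not fixed by these data. Aars shares 1326 exonic bases with the same-strand gene Exosc6, whose level was not analysed here, so reads of Exosc6 may stand within the Aars value.

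The mitochondrial genes spanned a similar range at lower levels. Behind Vars2 came Sars2 with 43.6 and 54.5 TPM, Yars2 with 50.5 and 44.6, Aars2 with 30.9 and 34.7 and Hars2 with 30.5 and 28.9. Cars2, Tars2, Lars2, Fars2 and Ears2 had means of 10.7 to 23.2 TPM. Iars2 was at 7.18 and 9.38 TPM, Rars2 at 6.40 and 2.67, Nars2 at 3.57 and 3.53 and Mars2 at 2.00 and 1.5, above Pars2 and Wars2. Among 15 neighbours in this order, 8 were separated and 7 overlapped.

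Class and complex membership cut across these levels. The 10 cytosolic class II genes had medians of 44.8 and 48.6 TPM, against 20.3 and 25.03 for the 10 of class I, which include Vars. Mitochondrial genes showed the same order, with 20.1 and 26.2 TPM for the 7 of class II and 8.56 and 10.1 for the 9 of class I. The 8 synthetases of the multi-synthetase complex had a median of 34.1 and 33.0 TPM, against 34.9 and 39.3 for the 12 outside it. On complete protein-coding transcripts of near full coding length alone, the medians were further apart, at 7.70 and 8.43 TPM in the complex against 33.9 and 38.4 outside it. Within the complex the mean levels ran from 2.69 TPM for Lars to 220 for Dars, although the products share a particle. These medians are descriptions of few genes and carry no test.

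The subunits of the cytosolic phenylalanyl enzyme were unequal. The active enzyme contains both an alpha subunit from Farsa and a beta subunit from Farsb. Farsa exceeded Farsb by 34.8-fold in replicate 1 and 34.4-fold in replicate 2 in TPM. The ratio was 32.7 and 33.6 in estimated counts, and 27.98 and 37.8 when only complete protein-coding transcripts of near full coding length were summed. Farsb rested on 423 and 361 counts, and the excess of Farsa was present in each library on every scale.

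For the same amino acid, cytosolic and mitochondrial genes differed by very different amounts. Of 16 such pairs, 6 had the cytosolic gene more than 2-fold higher in each library with separate TPM intervals, 1 had the mitochondrial gene higher, and 9 met neither condition. By direction alone, 11 pairs had the cytosolic gene higher in both libraries and 3 the mitochondrial one. The widest was tryptophan, where Wars at 28.2 and 32.0 TPM exceeded Wars2 54.8-fold (log2 ratio 5.78 ± 0.32). Mars1 exceeded Mars2 32.9-fold (5.04 ± 0.40), Farsa exceeded Fars2 11.2-fold, Eprs exceeded Pars2 9.11-fold, Vars exceeded Vars2 7.67-fold and Nars exceeded Nars2 6.92-fold.

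Leucine was the reverse. Lars2 stood at 8.56 and 21.04 TPM against 2.22 and 3.16 for Lars, and the log2 ratio of Lars to Lars2 was -1.94 in replicate 1 and -2.73 in replicate 2, a mean 5.05-fold excess of the mitochondrial gene. Cars2 over Cars and Yars2 over Yars went the same way in both libraries but below the 2-fold limit in at least 1 of them. Eprs against Ears2 and Rars against Rars2 changed direction between the libraries. For Rars and Rars2 the log2 ratio was -0.17 in replicate 1 and 1.46 in replicate 2. Dars, Gars, Kars, Qars and Farsb entered no pair, and a pair with a shared gene, Eprs, was counted for glutamate and again for proline. Across the 16 pairs the Spearman rho of the levels was 0.43 and 0.47, given without a test because the pairs come from the same libraries.

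**Figure D2:**
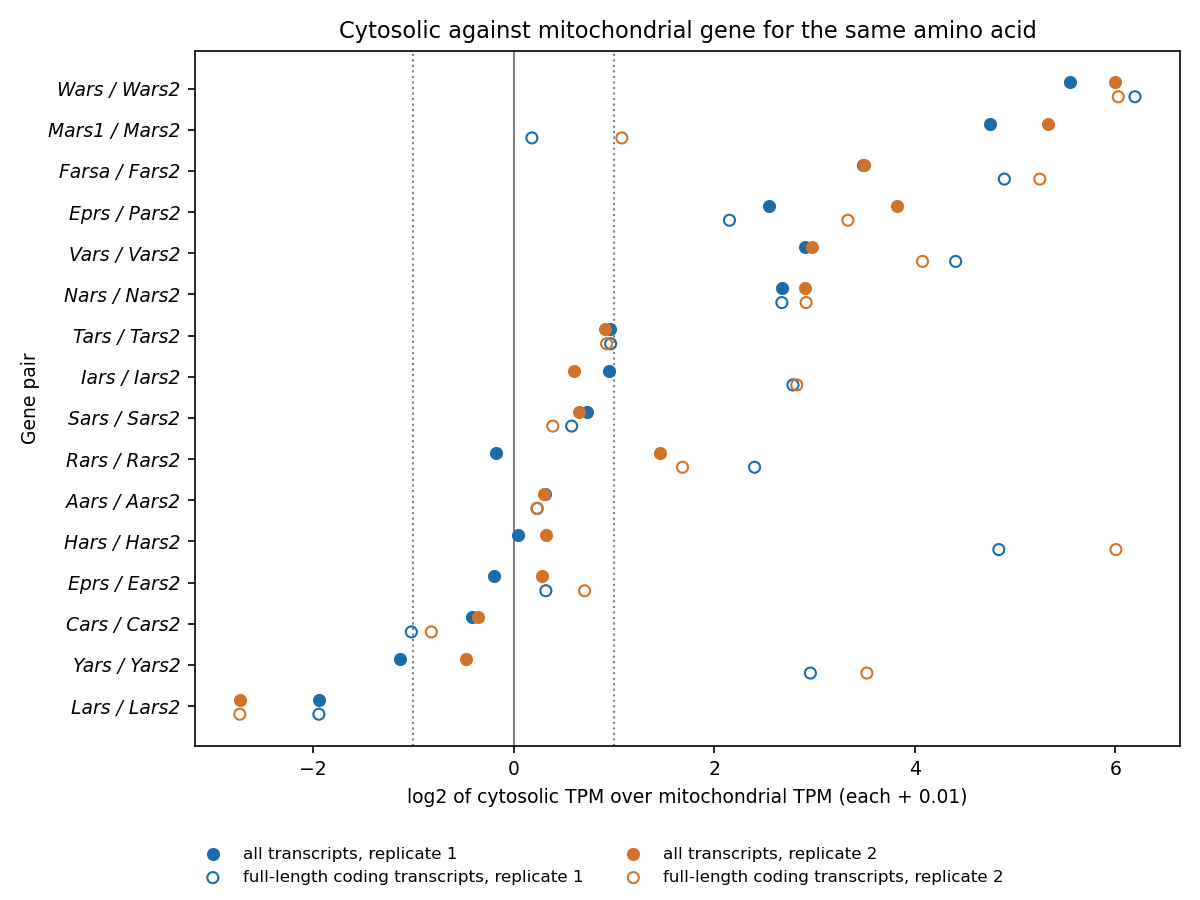
Log2 of cytosolic over mitochondrial TPM for 16 pairs in each library, from all transcripts of a gene (filled) and from its full-length coding transcripts alone (open); dotted lines mark 2-fold. Wars over Wars2 is at the right end and Lars over Lars2 at the left on all transcripts, and the open points of Mars1, Hars and Yars lie far from their filled points.

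The gene levels sum over transcripts of very different length, and this matters for several synthetases. A transcript was called full-length coding when it is annotated as protein-coding and complete, with a coding sequence of at least 80% of the longest of its gene, a definition chosen after seeing the data. Such transcripts carried 79.3% and 78.8% of the members' estimated counts but only 48.8% and 48.1% of their summed TPM, since a short transcript gains more TPM per fragment. In 10 of 36 members they held under 50% of the gene's TPM in both libraries, beside 29.4% of detected protein-coding genes. In 18 of 36 they held at least 90% in both, although 10 members have 1 transcript in the tables and can only be at 100%. Among the 34 detected members 17 reached 90% in both, beside 4941 of 10061 detected protein-coding genes, a similar share.

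The leading transcript, the one with the largest share of its gene's abundance, was the same in both libraries for 35 of 36 members. Among the 34 detected members it was the same in 33, beside 90.8% of detected protein-coding genes. For 6 members the leading transcript was a non-coding one in both libraries, beside 16.7% of detected protein-coding genes. All 6 are annotated as retained intron, an RNA in which an intron was left in and for which no coding sequence is given. They were Mars-204, Qars-212 and Yars-202 of the cytosolic genes and Hars2-205, Vars2-202 and Yars2-205 of the mitochondrial ones.

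Mars1 shows the scale of the effect. Mars-204, 467 bases long, held 79.7% and 77.3% of the gene's TPM with 937 and 799 counts, and the longer retained-intron transcript Mars-205 held 1513 and 812 counts. The full-length transcript Mars-201 had 421 and 470 counts and 2.27 and 3.18 TPM, out of 54.3 and 60.7 for the gene. Dars was similar without an intron. Dars-202, 645 bases long with a coding sequence of 261 of the 1503 bases of the full one, held 196 and 222 TPM, while full-length Dars-201 was at 12.5 and 10.7 TPM.

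Yars2 and Hars2 were almost entirely carried by such transcripts. Yars2-205 held 95.0% and 94.4% of Yars2, leaving 0.95 and 0.64 TPM for full-length coding transcripts, from 90.2 and 48.6 counts. Hars2-205 held 95.9% and 94.4% of Hars2, leaving 1.09 and 0.55 TPM, from 184 and 81.7 counts. These are estimates of how fragments divide among the transcripts of a gene, and they rest on few fragments. Vars2-202 held 74.3% and 68.5% of Vars2 and its full-length form 15.9 and 19.6 TPM. In Qars the full-length transcripts reached 7.93 and 8.19 TPM of 56.0 and 51.6, and in Yars 7.46 in each library. By estimated counts the full-length transcripts held 50.4% and 55.2% of Vars2 and 72.8% and 62.9% of Yars, but 30.3% and 30.7% of Qars. The remaining 3 members under 50% of TPM were Vars, described next, and mitochondrial Fars2 and Iars2. Their leading transcripts Fars2-202 and Iars2-203 are coding, with coding sequences of 657 of 1410 and 2199 of 3036 bases.

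Vars kept its rank on this scale. Vars-201, the full-length transcript, was at 337 and 331 TPM, above every other member in each library, and held 80.8% of the gene's counts in both. The partial coding transcript Vars-213, 819 bases long, added 329 and 270 TPM from 14775 and 9616 counts. After Vars, the highest full-length levels were those of Farsa (94.3 and 82.8 TPM), Kars (85.5 and 85.1), Sars (65.1 and 71.4) and, of the mitochondrial genes, Sars2 (43.6 and 54.5). Kars is known to encode the cytosolic and the mitochondrial enzyme through alternative splicing, and 3 of its transcripts were full-length coding. Kars-201 held 73.1% and 69.7% of its TPM the longer Kars-202 24.1% and 27.8% and Kars-203 2.84% and 2.43%, and which form serves which compartment was not read from these data.

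**Figure D3:**
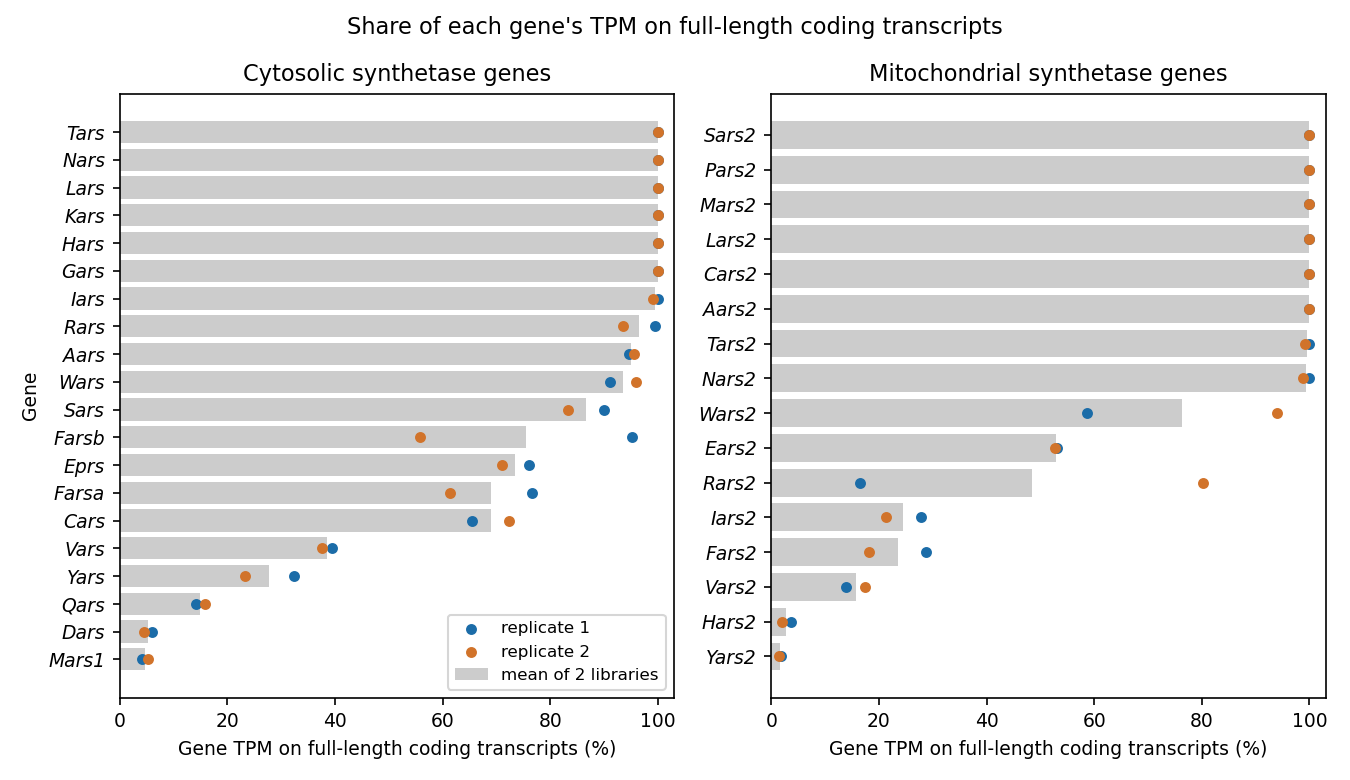
Percent of each gene's TPM on full-length coding transcripts, for cytosolic genes on the left and mitochondrial genes on the right; bars are the mean of the 2 libraries and points the libraries. Yars2, Hars2, Mars1 and Dars lie under 10%, and Rars2, Wars2 and Farsb differ most between libraries.

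On full-length coding transcripts alone the cytosolic excess was wider. The difference of the medians of log2(TPM + 1) was 2.11 in replicate 1 and 2.43 in replicate 2 (2.27 ± 0.23). The cytosolic gene was more than 2-fold higher in both libraries in 9 pairs and the mitochondrial gene in 1, again Lars2 over Lars, with no condition on intervals because the deposited intervals used here are those of whole genes. The Hars, Iars, Rars and Yars pairs joined the 9, with Hars exceeding Hars2 42.9-fold and Yars exceeding Yars2 9.46-fold. The Yars pair thereby turned around. Both of these ratios rest on the few estimated full-length counts of Hars2 and Yars2. The Mars1 pair left them, at 2.27 and 3.18 TPM for Mars1 against 2.00 and 1.5 for Mars2. Within the multi-synthetase complex, Kars aside, the 7 other synthetases had full-length levels between 2.22 TPM (Lars, replicate 1) and 14.2 TPM (Iars, replicate 2), where the gene levels had spanned 2.22 to 232 TPM.

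Between the libraries the cytosolic synthetase genes differed less, by their median, than the mitochondrial ones. On TMM-scaled log2 CPM (counts scaled to a common library size with edgeR's trimmed mean, for comparing 1 gene between libraries), the median size of the difference was 0.12 over the 36 members and 0.25 over all 13546 genes that passed the filter on low counts. It was 0.11 for the cytosolic genes, and 0.23 for the mitochondrial genes, near that of all tested genes. These sets were not matched for counts, and counting error alone widens the differences of genes with few counts. The lowest cytosolic count was 361 (Farsb, replicate 2) and the lowest mitochondrial one 92 (Pars2, replicate 2). How much of the contrast comes from count level was not tested. All 36 members passed. Replicate 1 was more than 1.5-fold higher for 1 member, against 9.17% of all tested genes, and replicate 2 for 1 member, against 10.1%. By any size, 19 of 36 members were higher in replicate 2, as were 49.8% of all tested genes. The cytosolic genes had a median difference (replicate 1 minus replicate 2) of -0.078 and the mitochondrial genes of 0.077, beside 0.0018 for all tested genes. No cytosolic gene passed 1.5-fold, and the farthest, Lars, lay at -0.41.

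The exceptions were Lars2 and Pars2. Lars2 (chromosome 9, 123366927 to 123462666, plus strand), the mitochondrial leucyl enzyme gene with 1 transcript in the tables, had 2119 counts in replicate 1 and 4157 in the smaller library of replicate 2, a log2 difference of -1.20. Pars2 (chromosome 4, 106651069 to 106655282, plus strand), the mitochondrial prolyl enzyme gene, had 232 and 92 counts, a log2 difference of 1.09. The next, Mars2, lay at 0.51 and did not pass. These are differences between single libraries and have no test. The granulocyte and B cell markers moved in the direction of Pars2. The megakaryocytic markers, all 6 higher in replicate 2, moved in that of Lars2, as did 5 of the 6 erythroid markers. The part of these cell types in either difference was not tested.

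The mitochondrial rRNA genes, like Lars2, were higher in replicate 2, as were 10.1% of all tested genes by more than 1.5-fold. They were looked up after the values of Lars2 were seen. The rRNA gene mt-Rnr1 had 60.8 and 132 TPM and mt-Rnr2 had 93.7 and 199, which is 2.01-fold and 1.98-fold higher in replicate 2 in scaled counts. The longest run of bases shared between any of the 9 Lars2 transcripts of the newer GENCODE M21 reference and these rRNAs, on either strand, was 14, and whether the differences are connected was not tested.

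**Figure D4:**
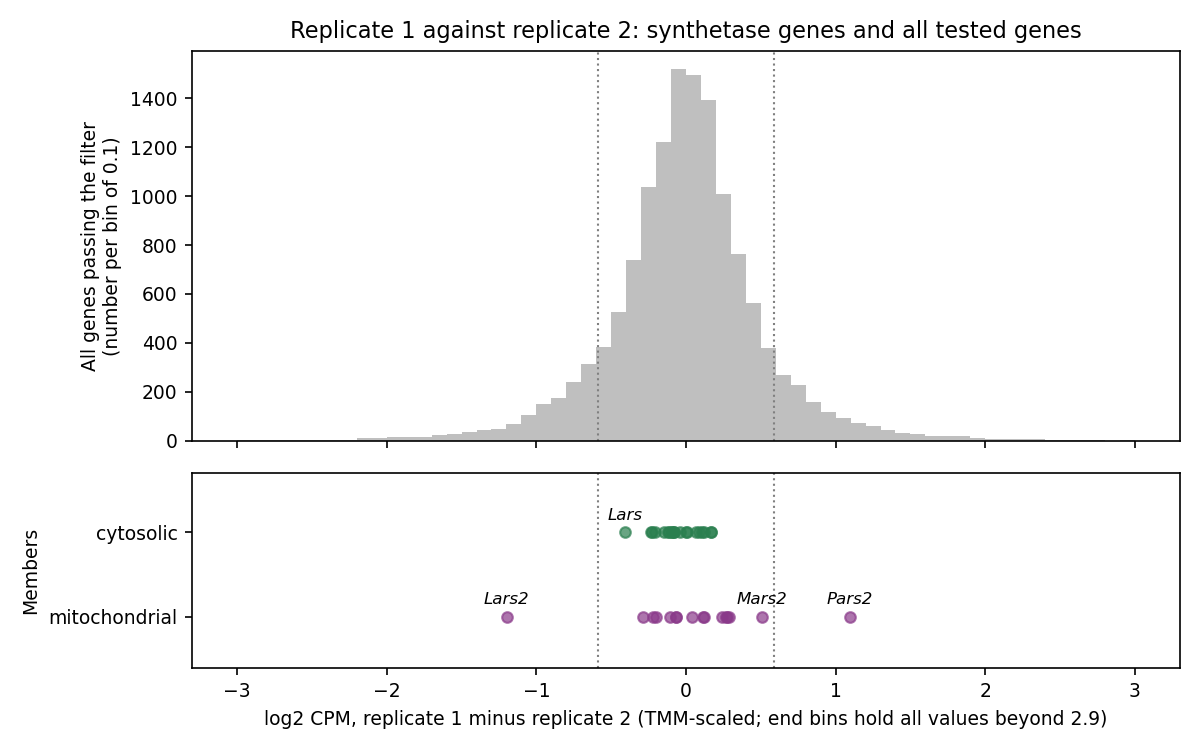
Difference in TMM-scaled log2 CPM between replicate 1 and replicate 2, as a histogram of the 13546 tested genes above and as points for cytosolic and mitochondrial synthetase genes below; dotted lines mark 1.5-fold. All 20 cytosolic genes lie inside the lines, and Lars2 and Pars2 lie outside on opposite sides.

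Rars2 and Farsb differed in transcript makeup and not in reads. Rars2, the mitochondrial arginyl gene, had 228 and 210 counts, yet 6.40 and 2.67 TPM. In replicate 1 the 326-base partial transcript Rars2-205 led with 43.0% of its TPM from 33.9 counts, and in replicate 2 it was listed at 0 and full-length Rars2-201 led with 80.3%. Full-length Rars2 went the other way, 1.06 and 2.14 TPM. For Farsb the full-length share was 95.2% and 55.9%, the remainder in replicate 2 being mainly Farsb-204, annotated as a target of nonsense-mediated decay, at 44.1% of the gene. Transcript shares at counts this low rest on few fragments.

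The proteins that work beside the synthetases were expressed at moderate levels. Of the complex scaffolds, Aimp2 was at 43.5 and 49.0 TPM, Eef1e1 (also called Aimp3) at 30.0 and 25.6 and Aimp1 at 9.58 and 9.48. Mitochondria make glutaminyl-tRNA by first charging it with glutamate and then converting it with an amidotransferase, for which the subunit genes Gatc had 12.0 and 11.7 TPM, Gatb 3.96 and 4.82 and Qrsl1 3.31 and 3.66. Mtfmt, which formylates the mitochondrial initiator methionyl-tRNA after Mars2 has charged it, was at 13.5 and 13.8 TPM. The median of these 7 partners was 12.0 and 11.7 TPM, and none differed by 1.5-fold between libraries. Ears2, which supplies the glutamate for the amidotransferase, was at 11.3 and 10.1 TPM.

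Downstream of charging, the median of the cytosolic elongation factors was far above that of the cytosolic synthetases, and the median of the mitochondrial factors was below that of the mitochondrial synthetases. The 6 cytosolic factors had a median of 701 and 734 TPM, led by Eef2, the translocation factor, at 2416 and 2671, Eif5a at 2375 and 2249 and Eef1a1, which brings charged tRNA to the ribosome, at 1011 and 1047. The lowest, Eef1g at 176 and 194 TPM and Eef1d at 243 and 340, were below Vars. The 8 mitochondrial factors had a median of 6.41 and 6.89 TPM. Tufm, the mitochondrial counterpart of Eef1a1, was at 70.3 and 67.8 TPM and its exchange factor Tsfm at 52.3 and 43.6, while Mrrf, a ribosome recycling factor, was lowest at 1.33 and 1.79. Of 8 further genes of tRNA charging and proofreading, the alanyl editing gene Aarsd1 was highest at 68.2 and 86.9 TPM, and Sepsecs, the last enzyme in making selenocysteinyl-tRNA, was lowest at 0.79 and 0.56.

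When charged tRNA runs short, the kinase Gcn2 (gene Eif2ak4) phosphorylates eIF2 alpha, which raises translation of the transcription factor ATF4 and, through it, transcription of genes for amino acid supply, several synthetases among them. Of 25 genes of this response, 24 were detected in both libraries, with a median of 21.1 and 19.8 TPM. Atf4 was the highest at 652 and 627 TPM, followed by Ppp1r15a, the phosphatase subunit that reverses the kinase, at 445 and 397 and Phgdh, the first enzyme of serine synthesis, at 304 and 353. Trib3 at 1.86 and 4.04 TPM and Slc7a11, the cystine transporter, at 0.24 and 0.10 were lowest by the mean of the libraries. Cebpb was 1.98-fold higher in replicate 1 and Ddit3 1.52-fold higher in replicate 2 in scaled counts. With 1 condition these levels do not show whether the response was on.

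ATF4 with a C/EBP partner binds a composite element in its targets, so the synthetase promoters were searched for its letters. RefSeq windows on GRCm38.p6, from 250 bases before to 50 after the RefSeq start of a gene, were matched by symbol for 13 cytosolic and 14 mitochondrial members. The element TGATGNAA, on either strand, was in the windows of 5 of 13 cytosolic and 0 of 14 mitochondrial members, beside 3.97% of all 32851 windows. Only 1 of the 5, Yars, holds it on the strand of the gene. The core of the site of NRF1, a factor known for nuclear genes of mitochondria, spelled GCATGCGC, was in 0 of 13 cytosolic and 3 of 14 mitochondrial members, beside 2.71% of all windows. The E-box CACGTG was in 4 cytosolic members (Aars, Farsb, Iars and Tars) and 1 mitochondrial member (Ears2), beside 7.15% of all windows. Members were counted as genes and the background as single windows, which outnumber the protein-coding genes of the series, so the units differ. A match describes letters only, and no binding was measured.

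The stretches that hold the C/EBP-ATF element in cytosolic members and the NRF1 core in mitochondrial members are shown so that the letters and their place can be read. Each runs 5′ to 3′ on the strand of its gene, from 70 bases before the RefSeq start through the first 20 bases from it. The match is in capitals, read as its reverse complement where it lies on the other strand. In GENCODE M21, Aars begins at 111033144 and Yars at 129189760, so their stretches lie inside the M21 genes.
Yars, chr4:129189833-129189922, plus strand: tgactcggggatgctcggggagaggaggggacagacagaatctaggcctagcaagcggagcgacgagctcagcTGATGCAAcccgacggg
Gars, chr6:55037931-55038020, plus strand: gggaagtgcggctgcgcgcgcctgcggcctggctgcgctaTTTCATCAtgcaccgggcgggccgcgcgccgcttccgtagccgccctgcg
Aars, chr8:111033772-111033861, plus strand: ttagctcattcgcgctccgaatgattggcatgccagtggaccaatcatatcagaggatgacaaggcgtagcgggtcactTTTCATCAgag
Iars, chr13:49682060-49682149, plus strand: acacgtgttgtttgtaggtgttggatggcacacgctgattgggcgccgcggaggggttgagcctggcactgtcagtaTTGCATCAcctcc
Tars, chr15:11399639-11399728, minus strand: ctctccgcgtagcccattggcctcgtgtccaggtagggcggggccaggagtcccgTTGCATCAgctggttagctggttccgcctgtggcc
Wars2, chr3:99141020-99141109, plus strand: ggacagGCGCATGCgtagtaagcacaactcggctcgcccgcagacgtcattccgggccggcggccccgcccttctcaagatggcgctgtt
Rars2, chr4:34614887-34614976, plus strand: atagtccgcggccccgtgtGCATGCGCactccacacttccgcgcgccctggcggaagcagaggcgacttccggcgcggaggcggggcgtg
Vars2, chr17:35667573-35667662, minus strand: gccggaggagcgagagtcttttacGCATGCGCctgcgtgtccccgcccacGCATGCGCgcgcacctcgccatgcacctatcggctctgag

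In Yars, Aars and Iars the element lies just after the RefSeq start, beginning at bases 4, 10 and 8 from it. In Gars and Tars it begins 30 and 15 bases before that start. Aars holds a second match 112 bases before the RefSeq start, outside the stretch shown. The 5 genes with the element had gene levels from 13.9 TPM (Iars, replicate 1) to 50.2 TPM (Gars, replicate 1). By gene TPM, Vars2, which holds the NRF1 core 2 times, was the highest mitochondrial gene, while Wars2, which holds it as well, was the lowest. No window was matched for Cars, Hars, Lars, Nars, Rars, Vars, Wars, Hars2 and Pars2, which include the highest and the lowest cytosolic gene. Whether these letters go with gene TPM was not tested. On full-length coding transcripts Vars2 was at 15.9 and 19.6 TPM, below Sars2, Aars2, Cars2 and Tars2 in each library.

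Several members share exons with genes on the opposite strand, and no source used here states how strand was handled. This held for 13 of 36 members. The share of all genes with such an overlap was not counted, so the number is no trait of the synthetases. Hars and Hars2, which are transcribed head to head, share 195 exonic bases, Cars2 shares 422 with Naxd (56.9 and 45.5 TPM), Iars2 shares 2034 with Rab3gap2 (20.7 and 23.6 TPM) and Mars1 shares 68 with Ddit3 (62.3 and 101 TPM). Reads of a gene and its antisense partner cannot be told apart there without strand.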

How the data were processed

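Poly(A) RNA-seq of 2 mouse MEP libraries was analysed. Per the labels the assembly was mm10, and a deposited text names GENCODE M4; no source used here names the aligner, the quantifier or the strand handling. Per the file headers, the authors deposited for each gene and transcript an expected count (estimated fragments, which need not be whole), TPM (scaled for effective length to 1000000 per library) and FPKM, used here only as an alternative. The deposited percent is the part of a gene's abundance that a transcript holds. The deposited bounds of a TPM interval, read as a signal with no stated level, cover quantification error within 1 library.

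GENCODE M21 was joined on identifiers stripped of their version (42462 of 43346 genes) for symbols, transcript types, coding lengths and GRCm38 coordinates; 1 of the members' 183 transcripts did not match and was not counted as full-length. Expected counts were rounded and scaled with edgeR 4.0.16 (R 4.3.3; TMM, filterByExpr, log2 CPM with prior count 2), tested on simulated data; DESeq2 1.42.0 size factors were an alternative. Levels used log2(TPM + 1) and pair ratios a pseudocount of 0.01 TPM. Python 3.11.15, pandas 2.3.3 and numpy 2.4.6 did the rest. Per library a count of 0 allows up to 0.0377 and 0.0459 CPM (3 counts, counting error only). The members and gene lists were chosen with earlier results of these data known. All members and partners are named; of other lists, those named are among the 3 highest, the 2 lowest and the 2 farthest apart between libraries at 5 TPM or more. Alternatives changed unit, pseudocount, filter, threshold, scaling and strand or left out 1 library.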

Additional observations from a re-analysis of the deposited data

How the results depend on the processing

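Of 45 alternatives over 11 results, 36 left the value within the spread between libraries, within 1.5 times the count or equal to 2 decimals, and 9 moved it. None turned the direction, but only the differences could turn, since counts and median levels have no direction. For levels, leaving out either library stays within the spread of 2 libraries by construction, so those alternatives show no stability. The cytosolic excess in median level was 0.98 with only members at 1 TPM or more, 2.27 on full-length coding transcripts and 1.25 to 1.56 when either library was left out. The cytosolic gene was higher in 10 pairs by any size with separate intervals, in 8 with CPM, and in 6 to 7 with a library left out. On log2 TPM, 2 members were more than 1.5-fold higher in replicate 1, Rars2 joining Pars2. The median difference between libraries was -0.16 (cytosolic) and 0.021 (mitochondrial) on log2 TPM, and -0.056 and 0.050 as means. The C/EBP-ATF element was in 1 member on the gene strand alone. The partner median was 11.7 to 12.0 TPM and the response median 19.8 to 21.1 TPM with a library left out. Full-length transcripts, and leaving out Vars or both Lars2 and Pars2, were chosen after seeing the data. No paired analysis was possible because there is 1 group. Depth limits Wars2, Pars2 and Rars2 most, each with at most 232 counts.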
